A study of Mus musculus with 93 samples.

Results

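Macrophages sorted from fetal mouse liver at E12.5 (n = 2 libraries), E14.5 (n = 1) and E18.5 (n = 2) were compared with macrophages sorted from the liver at E10.25 (n = 2) and E10.5 (n = 2), where E marks the embryonic day. These 9 libraries are every library labelled as tissue liver and cell type Mac at those ages, out of 93 libraries in the series. The study profiled macrophages and their progenitors from several mouse tissues and ages as sorted bulk populations, by SMART-Seq2, which copies whole polyA transcripts from few cells. The labels give no strain, genotype or treatment, no sorting markers, and no number of embryos per library. Brain Mac of the same ages (6 libraries of E12.5, E14.5 and E18.5 and 5 of E10.25 and E10.5) served as the other tissue. The series text says that some replicates are technical and some biological and does not tell them apart, so p-values measure the spread between libraries. In bulk samples, fewer cells of a type and less RNA per cell cannot be told apart.

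Kupffer cells are the resident macrophages of the liver sinusoids, where they capture particles, clear aged red cells and recycle heme iron. Their identity is tied to the transcription factors LXRα (Nr1h3), ID3 and SPI-C (Spic), and to surface receptors such as CLEC4F. Before birth the liver is also the main site of blood formation, and its macrophages sit at the centre of erythroblastic islands, where they hold maturing erythroblasts and engulf the nuclei these cast off. The liver bud of the E10 embryo has only begun to receive blood progenitors, so the comparison spans the onset of fetal liver erythropoiesis.

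Levels are log2 values, and 5.37 is the floor at or under which a gene was treated as not detected. The size of a difference that starts or ends there therefore moves with the chosen floor. The 4 libraries of E10 had 9511 to 10448 genes above the floor and the 5 fetal libraries had 9446 to 10905, with no difference by a two-sided exact permutation test (p = 0.571 over 126 splits). The file holds no counts, so sequencing depth is unknown. Small shared offsets of the lowest values divide the series into sets of 60 and 33 libraries that the labels do not name. Both E10.5 libraries and E12.5 replicate 1 lie in the smaller set, and the other 6 liver libraries lie in the larger set. Set and age thus cannot be told apart within E10. A liver fit within the larger set compares fetal libraries with E10.25 alone. A difference was called when its adjusted p (limma, Benjamini-Hochberg over all genes tested) was under 0.05 and its size on the log2 scale at least 1.

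Several Kupffer cell genes lay at or near the floor in most libraries of E10 and well above it from E12.5. Erythroid genes, described further on, had differences as large or larger. Stretches upstream of 4 of the Kupffer cell genes are shown because their transcripts went from low to high levels. They were read from RefSeq (GRCm38.p6) in the direction of transcription, 5′ to 3′, as 250 bases before each start. Clec4f was shortened to 179 bases, leaving out 71 bases that a GENCODE exon covers. The windows are chr6:83656188-83656366 (minus strand), chr10:88683024-88683273 (minus), chr1:120505025-120505274 (minus) and chr3:87357631-87357880 (plus). Capitals mark matches, on either strand, to the PU.1 core GAGGAA, the MAF core TGCTGA or the E-box CANNTG.
Clec4f: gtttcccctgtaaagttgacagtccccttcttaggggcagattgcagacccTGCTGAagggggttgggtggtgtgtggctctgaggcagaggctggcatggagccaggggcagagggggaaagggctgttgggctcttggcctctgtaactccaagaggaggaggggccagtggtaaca
Spic: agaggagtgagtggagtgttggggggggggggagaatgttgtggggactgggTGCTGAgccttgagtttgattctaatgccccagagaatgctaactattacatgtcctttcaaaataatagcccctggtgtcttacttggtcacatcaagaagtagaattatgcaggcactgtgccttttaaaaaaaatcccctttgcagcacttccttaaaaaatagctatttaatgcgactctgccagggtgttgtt
Marco: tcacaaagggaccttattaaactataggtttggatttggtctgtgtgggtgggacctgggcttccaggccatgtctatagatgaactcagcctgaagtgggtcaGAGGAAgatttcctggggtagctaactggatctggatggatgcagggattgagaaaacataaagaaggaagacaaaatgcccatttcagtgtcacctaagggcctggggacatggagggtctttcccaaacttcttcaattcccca
Cd5l: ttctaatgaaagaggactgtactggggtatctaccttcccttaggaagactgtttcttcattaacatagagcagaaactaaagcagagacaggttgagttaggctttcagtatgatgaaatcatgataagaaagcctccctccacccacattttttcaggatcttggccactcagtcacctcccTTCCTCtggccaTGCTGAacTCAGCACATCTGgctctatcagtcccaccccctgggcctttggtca
Clec4f and Spic held 1 MAF core each, Marco held 1 PU.1 core, and Cd5l held 1 PU.1 core, 2 MAF cores and 1 E-box, of which the E-box lies directly beside a MAF core. Among 32851 RefSeq promoters cut to 250 bases, 23.3% held the PU.1 core, 16.1% the MAF core and 66.2% an E-box. Cut to 179 bases, 17.1%, 11.6% and 55.3% did. A match is a description of letters, and binding was not measured here.

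Clec4f, a C-type lectin receptor that marks Kupffer cells, was at 5.37 and 6.17 at E10.25 and 5.37 in both E10.5 libraries, against 11.28 and 10.46 at E12.5, 9.56 at E14.5 and 15.39 and 15.11 at E18.5. The sides did not overlap, as for 874 of 10202 genes tested (8.57%), 551 of them with the fetal side higher (5.4%), and the E18.5 pair stood above the other fetal libraries. Clec4f rose by 6.79 ± 0.99 (SE, limma adjusted p = 3.38e-04). All its E10 values lay below the filter level of 6.37, so it was tested only through its fetal libraries. For such a gene a difference was built into the filter, and the p-value does not add support to the rise. Spic, which encodes a transcription factor needed for heme-handling macrophages, was at 7.46 and 5.43 at E10.25 and 5.41 and 5.37 at E10.5, then at 12.98 and 10.70 at E12.5, 10.92 at E14.5 and 12.43 and 12.54 at E18.5. Every fetal library lay above every E10 library, and the rise was 6.0 ± 0.66 (adjusted p = 1.98e-05). The third marker did not follow them. Id3, an inhibitor of DNA binding, was at 12.53 and 12.13 at E10.25, 10.12 and 10.79 at E10.5, 11.33 and 12.82 at E12.5, 11.91 at E14.5 and 12.53 and 12.26 at E18.5. The sides overlapped, with the E10.5 pair lowest, and the difference was 0.78 ± 0.48 (adjusted p = 0.408). The label of liver macrophages thus holds by Clec4f and Spic from E12.5 onward, while at E10 Clec4f was at the floor in 3 of 4 libraries and Id3 was present in all 4.

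**Figure D1:**
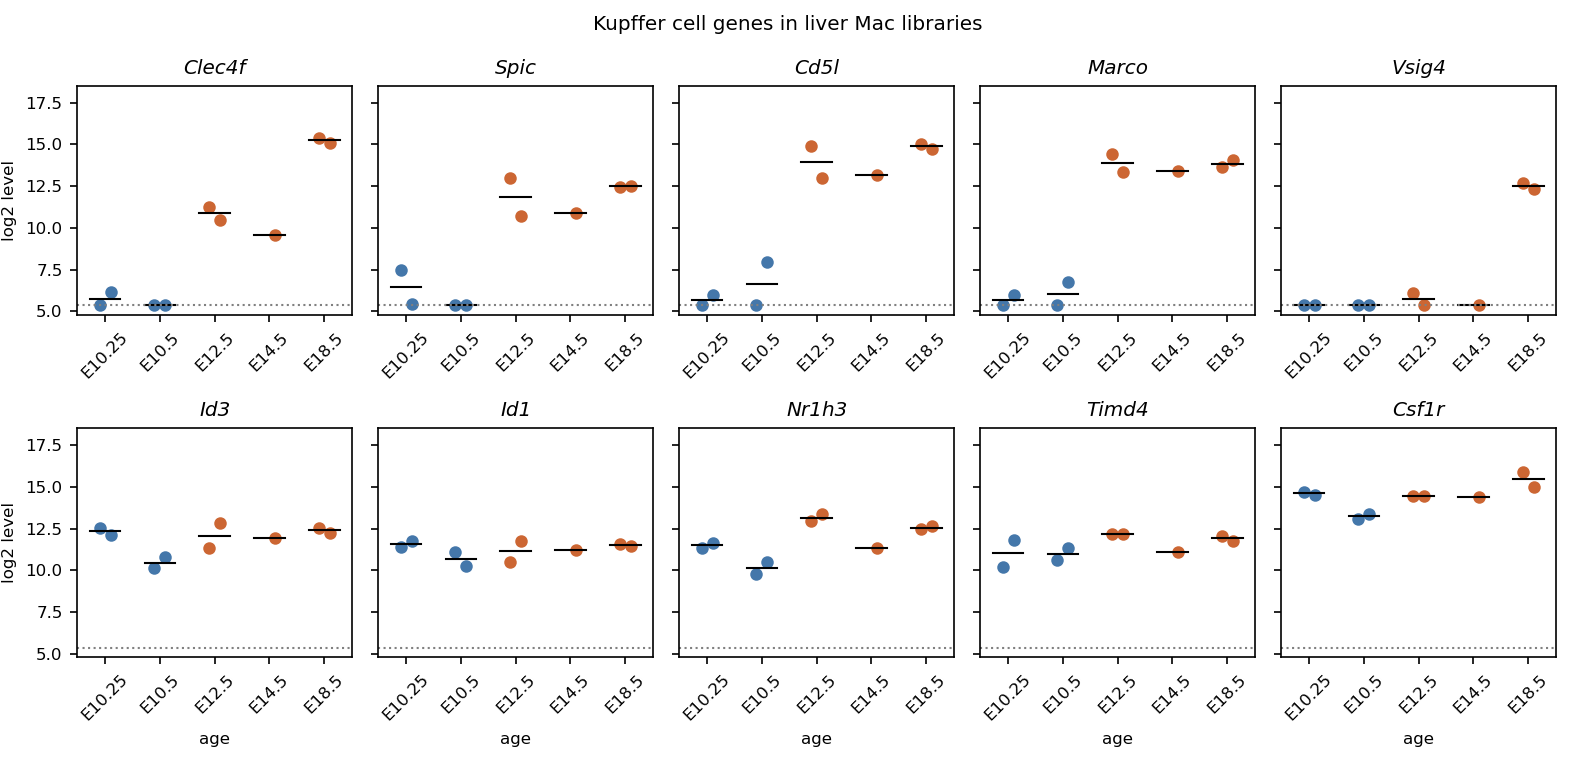
Log2 level (y axis) of 10 Kupffer cell and macrophage genes in the 9 liver Mac libraries by age (x axis). Points are libraries, bars are age means and the dotted line is the floor of 5.37. Clec4f, Spic, Cd5l and Marco stand above every E10 library from E12.5, Vsig4 leaves the floor by more than 1 only at E18.5, and Id3, Id1, Nr1h3, Timd4 and Csf1r overlap between the sides.

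Cd5l encodes a secreted scavenger protein that is a target of LXRα. Its level was 5.37 and 6.01 at E10.25, 5.37 and 7.95 at E10.5, 14.90 and 12.98 at E12.5, 13.17 at E14.5 and 15.05 and 14.71 at E18.5. No library of E10 came near the fetal libraries, and Cd5l rose by 7.99 ± 0.59 (adjusted p = 8.9e-08). Marco, a scavenger receptor for bacteria and particles, was at 5.37 and 6.01, then 5.37 and 6.74 at the E10 ages, and at 14.44 and 13.35 at E12.5, 13.40 at E14.5 and 13.64 and 14.05 at E18.5. The fetal libraries formed a narrow group, and the rise was 7.90 ± 0.45 (adjusted p = 2.85e-09). Within the larger set Cd5l rose by 8.29 and Marco by 7.92. The smaller set holds 1 fetal library against 2 of E10, with differences of 8.24 and 8.39, and a call there would rest on a lone fetal library. Vsig4, the complement receptor CRIg, was at the floor in all 4 libraries of E10 and at 6.13, 5.37 and 5.37 at E12.5 and E14.5, and reached 12.72 and 12.31 only at E18.5. It lay above the filter in too few libraries to be tested.

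Over all genes, 474 of 10202 tested were called (4.65%), of which 360 were higher (3.53%) and 114 lower (1.12%) in fetal liver macrophages, and 1974 (19.3%) had an unadjusted p under 0.05. Under quantile scaling the split was 345 higher and 187 lower. Within the larger set of libraries (4 fetal against 2 of E10) 111 were higher and 5 lower, and within the smaller set (1 against 2) 41 and 25. Leaving out 1 library gave 218 to 445 higher and 37 to 170 lower genes. The lower count was 37 and 44 without E10.5 replicates 1 and 2, 45 without E10.25 replicate 1, 73 without E12.5 replicate 2 and 60 without E18.5 replicate 2, and that last fit gave the 218 higher. The median difference over all genes tested was 0.08. The mean at E18.5 exceeded that at E12.5 by at least 1 in 95 of the 360 genes called higher (26.4%) and lay at least 1 below it in 15 (4.17%), against 13.5% and 18.8% of all genes tested. The 360 were chosen with these libraries, so the shares are a description.

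**Figure D2:**
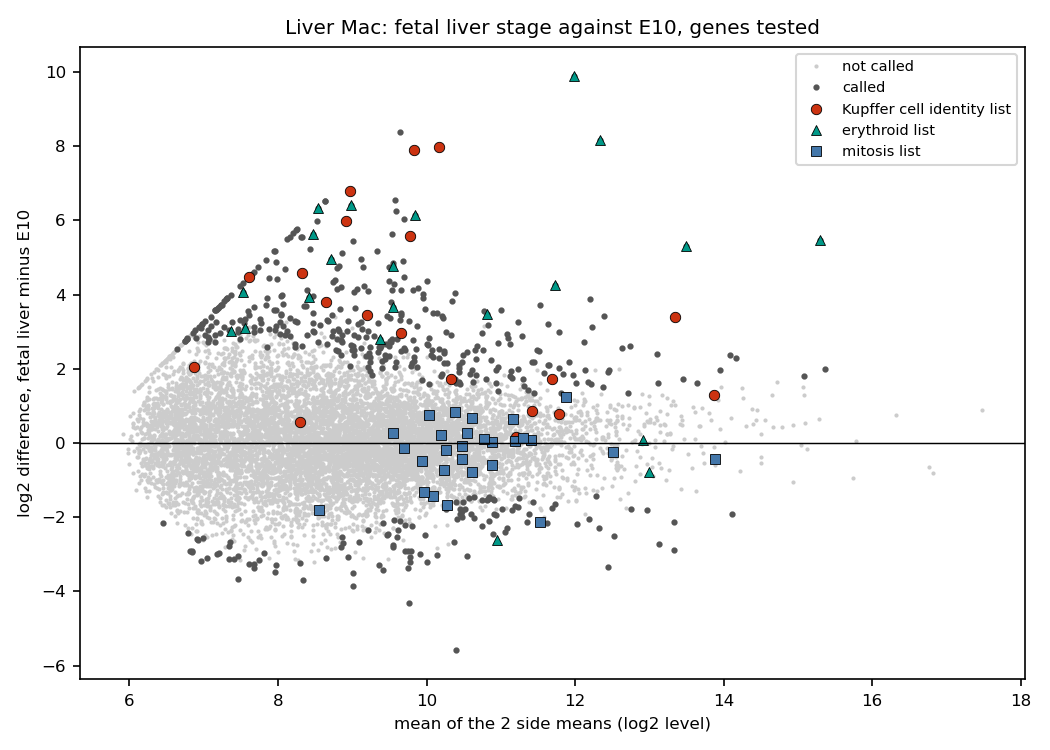
Difference between fetal liver and E10 macrophages (y axis, log2) against the mean of the 2 side means (x axis, log2 level) for the 10202 genes tested. Dark points passed the call rule, and the members of the Kupffer cell identity, erythroid and mitosis lists are marked whether called or not. Kupffer cell and erythroid genes lie mostly above 0, mitosis genes lie around 0, and the straight upper left edge is formed by genes at the floor in all 4 libraries of E10.

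Of the Kupffer cell identity list, 23 of 26 genes were in the table and 19 passed the filter on low levels. A gene that passes only through the fetal side had to differ, so list counts describe the genes tested and nothing more. Beside each count stand the shares over all genes tested: 3.53% called higher, 1.12% lower and 19.3% with an unadjusted p under 0.05. A list with 0 calls is therefore not shown to be unchanged. Of the 19, 12 rose and 0 fell, with a median difference of 3.39. Some of these genes may be known as Kupffer cell genes from these very samples, so the count is not independent evidence of their direction. Beside the genes above these were Il18bp (5.58), which neutralises interleukin 18, Cdh5 (4.59), the cadherin of endothelial junctions, the complement component C6 (4.47), and the sialic acid receptor Siglec1 (3.79). The others were Clec1b (3.46), Fcna (3.39), a ficolin that binds microbial sugars, Cd38 (2.97) and Nr1h3 (1.71). C6 was at the floor in all 4 libraries of E10, so its difference is counted from the floor. Timd4, a phosphatidylserine receptor, was already at 10.20 to 11.84 at E10 against 11.10 to 12.17, a difference of 0.85 ± 0.41 (adjusted p = 0.267). Slc40a1, the iron exporter ferroportin, differed by 1.30 (adjusted p = 0.0914), Cd163, the hemoglobin scavenger receptor, by 2.05 (adjusted p = 0.189), and Folr2, a folate receptor, by 1.72 (adjusted p = 0.194).

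Of 27 tested transcription factors of Kupffer cells and macrophages, 6 rose and 0 fell, with a median difference of 0.30. Among them, apart from Spic, were Irf7 (4.10), the interferon regulator, Rxra (2.04), the partner of LXRα, Nr1h3 and Spi1 (1.34), which encodes PU.1. Nr1h3 was at 11.35 and 11.64 at E10.25, 9.79 and 10.52 at E10.5, 12.95 and 13.36 at E12.5, 11.31 at E14.5 and 12.45 and 12.63 at E18.5. Only the E14.5 library fell among the E10 libraries, and the rise was 1.71 ± 0.46 (adjusted p = 0.0399). That call was lost in 7 of 9 fits with a library left out, namely all but those without E10.25 replicate 2 or E14.5, with values of 1.37 to 1.89. Within the larger set, whose E10 libraries are both of E10.25, the difference was 0.94 (adjusted p = 0.563). Within the smaller set, with E10.5 and 1 fetal library, it was 2.80. The call of Rxra was lost in 6 of the 9 fits, with values of 1.77 to 2.06, all but those without E10.25 replicate 2, E10.5 replicate 2 or E14.5. Id1 differed by 0.17 (adjusted p = 0.87). Of 20 tested genes of BMP, TGF-beta and Notch signalling, which carry niche signals to Kupffer cells, 0 were called in limma and 4 had an unadjusted p under 0.05, with a median difference of -0.13.

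Among LXR targets and cholesterol efflux genes, 6 of 20 tested rose and 0 fell, with a median of 0.60. Pltp, the phospholipid transfer protein, was at 5.37 and 9.64 at E10.25, 5.37 and 7.81 at E10.5, and between 9.67 (E14.5) and 13.17 (E18.5 replicate 1) in the fetal libraries. The E14.5 library lay just above E10.25 replicate 2, and the rise was 4.23 ± 0.86 (adjusted p = 0.00694). Scd1, a fatty acid desaturase, rose by 3.67 from the floor in all 4 libraries of E10, and Apoe, the lipid carrier apolipoprotein E, by 2.01 (adjusted p = 0.0467). Apoe lost its call in 7 of those 9 fits, all but those without E10.25 replicate 2 or E14.5, with values of 1.74 to 2.23. The efflux pumps did not pass: Abca1 differed by -0.41 (adjusted p = 0.633) and Abcg1 by 1.62 (adjusted p = 0.13). Of 20 tested cholesterol synthesis genes, 0 were called in limma and 2 had an unadjusted p under 0.05 (median 0.37).

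**Figure D3:**
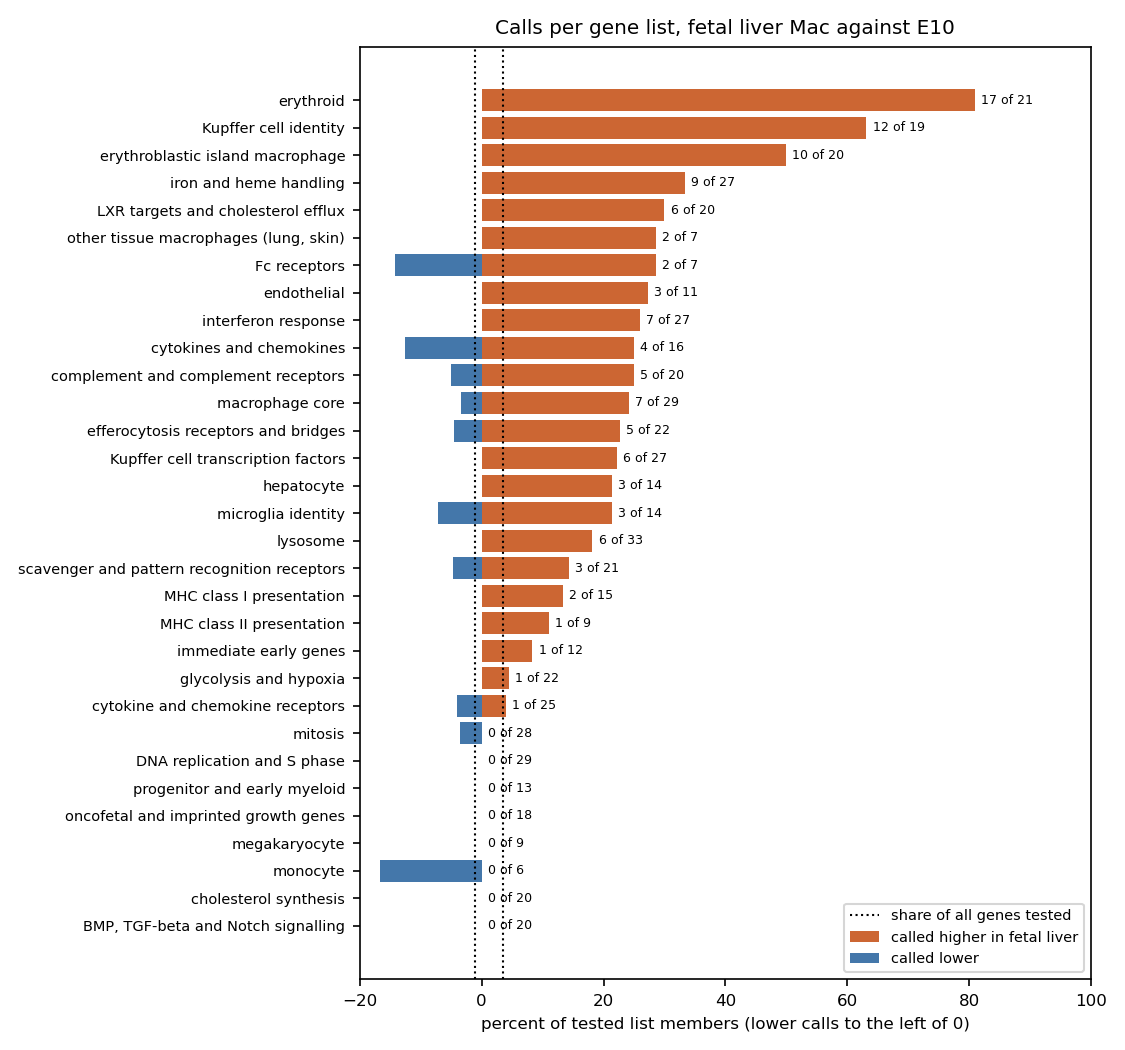
Percent of the tested genes of each list (rows) that were called higher (bars to the right of 0, with the count beside them) or lower (bars to the left) in fetal liver against E10 macrophages. The dotted lines mark the same shares over all genes tested, 3.53% higher and 1.12% lower, and lists with few tested genes are not drawn. The erythroid (17 of 21), Kupffer cell identity (12 of 19) and erythroblastic island (10 of 20) lists have the longest bars.

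Iron and heme genes were called higher in 9 of 27 tested and lower in 0, with a median of 1.30. Blvrb, a biliverdin reductase, was at 9.79 and 11.15 at E10.25, 8.59 and 8.92 at E10.5, 12.68 and 12.78 at E12.5, 12.44 at E14.5 and 13.29 and 13.12 at E18.5. The sides did not overlap, and it rose by 3.25 ± 0.47 (adjusted p = 3.06e-04). Tfrc, the transferrin receptor, which erythroblasts also carry in abundance, was at 7.79 and 8.94 at E10.25, 9.5 and 10.06 at E10.5, 12.54 and 12.71 at E12.5, 12.49 at E14.5 and 12.05 and 12.98 at E18.5. All 5 fetal libraries lay within a narrow band above E10, and the rise was 3.48 ± 0.45 (adjusted p = 1.09e-04). Fech, which inserts iron into heme, rose by 3.55 (adjusted p = 0.017), and its call ended without E10.5 replicate 1 (3.31), E10.5 replicate 2 (2.56) or E18.5 replicate 2 (3.08). Hmox1, the heme-degrading enzyme, was at 13.80 and 14.54 at E10.25, 13.55 and 14.15 at E10.5, 15.43 and 15.66 at E12.5, 14.54 at E14.5 and 15.42 and 15.46 at E18.5. The E14.5 library lay barely above the highest E10 library, and the difference of 1.29 ± 0.42 did not pass (adjusted p = 0.0876). Without the E14.5 library Hmox1 was called. That library had the lowest fetal mean of the iron, LXR target, macrophage, lysosomal, complement, erythroid and hepatocyte lists, among others. In the Kupffer cell identity and interferon lists E12.5 replicate 2 was lowest. The cause of the low E14.5 levels was not tested.

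Of the erythroblastic island list, 10 of 20 tested genes rose and 0 fell, with a median of 2.29. Vcam1, the adhesion molecule that binds erythroblasts to the central macrophage, was at 5.37 in 3 libraries of E10 and 9.05 in E10.5 replicate 2, then at 13.01 and 11.64 at E12.5, 12.18 at E14.5 and 13.98 and 13.44 at E18.5. E10.5 replicate 2 was the only E10 library with a detected level and still lay below all fetal libraries. Vcam1 rose by 6.56 ± 0.72 (adjusted p = 1.75e-05), and by 7.44 within the larger set. Axl, a receptor for apoptotic cells, rose by 4.03 ± 0.61 (adjusted p = 4.82e-04), and Adgre1, an adhesion receptor of most mouse macrophages, by 2.52 ± 0.42 (adjusted p = 0.00131). Siglec1, Spic and Trf (2.60) were also among the 10. The remaining 4, Klf1 (4.97), Ermap (3.90), Add2 (3.90) and Epor (2.80), are genes that erythroid cells express. Dnase2a, the nuclease that digests the DNA of engulfed nuclei, was at 8.50 to 10.72 at E10 and 10.03 to 11.84 in fetal liver, with a difference of 1.12 ± 0.52 (adjusted p = 0.236). Mertk, another receptor for apoptotic cells, differed by 0.33 (adjusted p = 0.697).

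Transcripts of red cell precursors moved with these genes. Of the erythroid marker list, 17 of 21 tested genes rose and 0 fell, with a median of 4.25, and its mean level was 7.54 to 9.0 in the E10 libraries and 11.78 to 12.81 in the fetal libraries. The adult beta globin gene Hbb-bs was at 6.53 and 8.10 at E10.25, 5.37 and 8.15 at E10.5, 17.99 and 15.96 at E12.5, 16.30 at E14.5 and 16.77 and 17.66 at E18.5. No gene named here had a larger difference (9.90 ± 0.56, adjusted p = 2.85e-09), and Hbb-bt rose by 8.17. Reads of Hbb-bs and Hbb-bt, and of Hba-a1 and Hba-a2, are hard to assign between near-identical copies, so the split within each pair is uncertain. Slc4a1, the anion exchanger of the red cell membrane (6.41), Tspo2 (6.33) and Alas2, which starts heme synthesis in erythroid cells (6.15), rose too. The embryonic globins did not pass, at -0.79 for Hba-x, -2.61 for Hbb-bh1 and 0.07 for Hbb-y (adjusted p = 0.726, 0.194 and 0.983). Hbb-y was at 13.50 and 15.78 at E10.25, 10.52 and 11.71 at E10.5, 16.58 and 11.62 at E12.5, 15.96 at E14.5 and 11.60 and 8.97 at E18.5. E12.5 replicate 1 and the E14.5 library thus carried high levels, and the replicates of E12.5 were far apart. The part of erythroid RNA in the island and iron results was not tested.

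**Figure D4:**
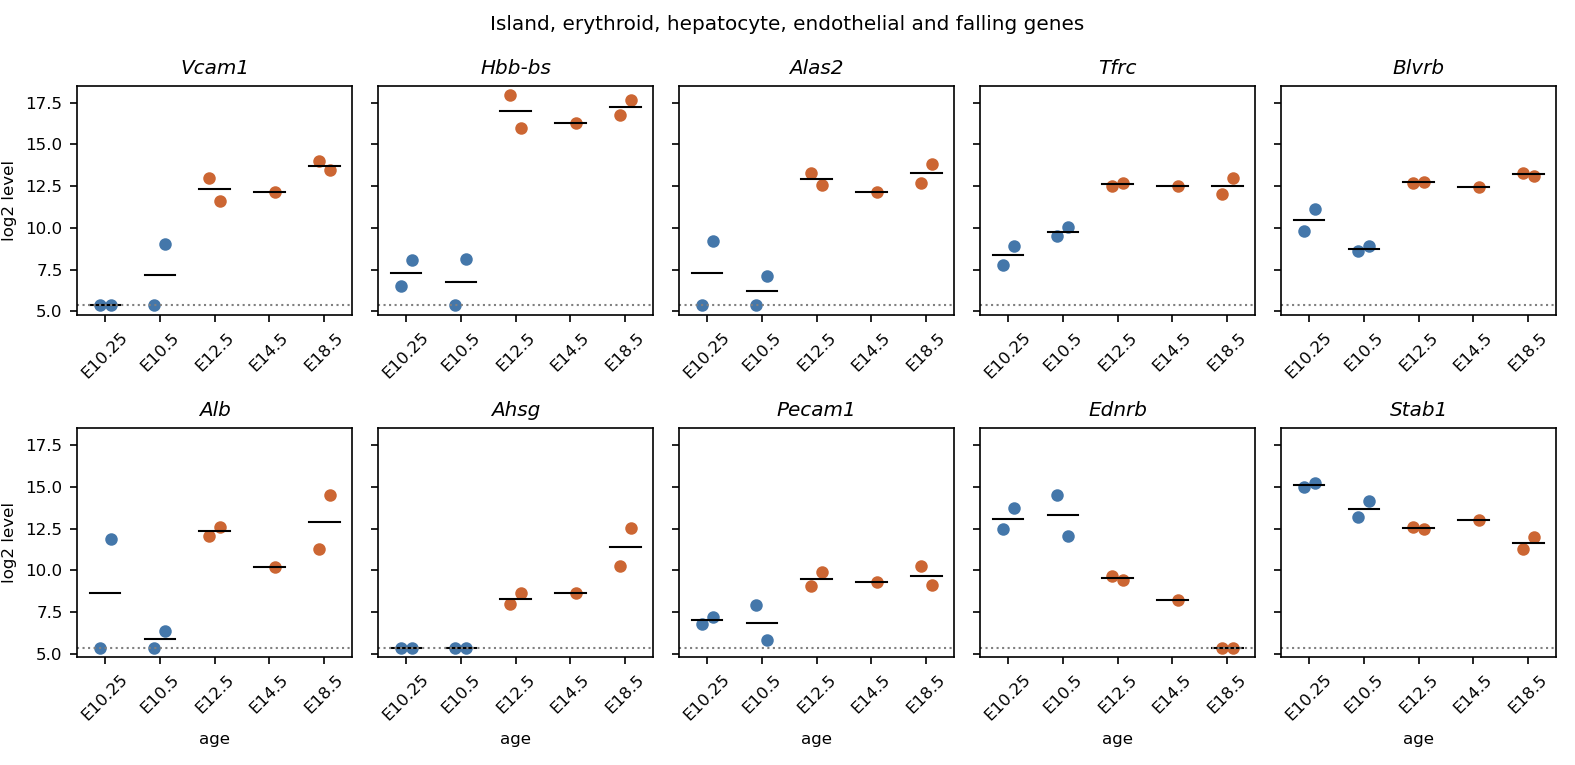
Log2 level (y axis) of 10 genes in the 9 liver Mac libraries by age (x axis), with points for libraries, bars for age means and a dotted line at the floor of 5.37. Vcam1, Hbb-bs, Alas2, Tfrc, Blvrb, Ahsg and Pecam1 lie higher in every fetal library than at E10, Alb overlaps through E10.25 replicate 2 (11.87), and Ednrb and Stab1 lie lower, with Ednrb at the floor in both E18.5 libraries.

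Among the 12 largest rises of all genes were Tmcc2 (8.37), which encodes a transmembrane coiled-coil protein, Tent5c (6.53), a poly(A) polymerase, Rhd (6.53), the rhesus blood group antigen, and Cd24a (6.25), a surface glycoprotein of immature blood cells. Tmcc2 was at the floor in 3 libraries of E10 and at 5.72 in E10.5 replicate 2, against 13.81 and 14.48 at E12.5, 12.65 at E14.5 and 13.40 and 14.79 at E18.5. The gap between the sides exceeded the spread within either. Tent5c, Rhd and Tspo2 were not detected in any library of E10. Rhd, Tspo2, Klf1 and Add2 were at the floor in both libraries of liver Mac of P21 (postnatal day 21, n = 2), where Tent5c was at 5.99 and 7.68. Clec4f (17.10 and 17.70), Cd5l (16.29 and 16.34) and Marco (16.15 and 16.53) were high there. The P21 libraries had 14957 to 16396 transcripts above the floor, fewer than the 20084 to 23853 of the 9 libraries compared. Levels in liver Mac of P2 and P8, and those of Hbb-bs, Alas2, Slc4a1 and Tmcc2 at P21, are not reported here. The cause of the P21 levels was not tested.

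Markers of other liver cells were read beside these results. Of 14 tested hepatocyte genes, 3 rose, with a median of 2.60. Ahsg, a plasma glycoprotein gene, was at the floor in all 4 libraries of E10 and between 7.99 (E12.5 replicate 1) and 12.51 (E18.5 replicate 2) in the fetal libraries. The albumin gene Alb was at 5.37 and 11.87 at E10.25, 5.37 and 6.34 at E10.5, 12.03 and 12.62 at E12.5, 10.19 at E14.5 and 11.30 and 14.51 at E18.5. Alb overlapped between the sides because of E10.25 replicate 2, and it rose by 4.89 (adjusted p = 0.0117), with a difference of 3.54 within the larger set (adjusted p = 0.334). The mean of the hepatocyte list ran from 5.71 to 8.33 at E10, highest in E10.25 replicate 2, and from 7.18 to 10.95 in fetal liver, highest in E18.5 replicate 2. Trf, the transferrin gene, is in the hepatocyte, iron and island lists, and its call ended without E10.5 replicate 1 (2.32) or E10.5 replicate 2 (2.46).

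Endothelial genes rose in 3 of 11 tested, with a median of 2.05. These were Stab2 (5.54), a hyaluronan receptor of sinusoids, Cdh5 and Pecam1 (2.59), an adhesion molecule of endothelium and macrophages. Stab2 was at 5.37 and 6.04 at E10.25, 5.37 in both E10.5 libraries, 11.04 and 12 at E12.5, 11.23 at E14.5 and 10.71 and 10.41 at E18.5. All fetal libraries lay above E10 (adjusted p = 3.62e-05). Stab2 passed the filter on low levels only through the fetal libraries. Kdr, the endothelial VEGF receptor, and Oit3, a sinusoidal endothelial gene, were not among the 3 called. Both are given for the fetal ages alone and were chosen after their values were seen, so they do not stand for the list. The mean of the endothelial list ran from 6.14 to 6.61 at E10. In fetal liver it ran from 6.625 (E18.5 replicate 1) to 9.52 (E12.5 replicate 2). Stab2 did not share the low levels of Kdr and Oit3 at E18.5. Kdr was at 10.54 and 9.82 at E12.5, 8.84 at E14.5 and 5.37 and 5.87 at E18.5. Oit3 was at 11.68 and 11.99 at E12.5, 10.28 at E14.5 and 5.37 in both E18.5 libraries. Pecam1 lost its call in 6 of the 9 fits with a library left out, with values of 2.21 to 2.71, all but those without E10.25 replicate 2, E10.5 replicate 1 or E14.5. Among lists of other blood cells, 0 of 9 megakaryocyte, 0 of 3 neutrophil, 0 of 2 mast cell and 0 of 2 lymphoid genes tested were called in limma (2, 1, 0 and 0 at an unadjusted p under 0.05). Of 6 monocyte genes 0 rose and 1 fell, S100a6 (-2.15, limma adjusted p = 0.0441). S100a6 passed the filter on low levels only through the 4 libraries of E10. With a library left out it could be tested in 5 fits, those without a fetal library, and lost its call in all 5. The monocyte marker Ly6c2 was at the floor in all 9 libraries. The part of these cells in the results was not tested.

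Phagocytic and defence genes changed in both directions. Complement genes rose in 5 of 20 tested and fell in 1, with a median of 1.62. C1qa, a chain of the initiating complement protein, was at 11.07 and 11.40 at E10.25, 8.15 and 10.42 at E10.5, 13.92 in both E12.5 libraries, 12.70 at E14.5 and 15.52 and 14.63 at E18.5. The sides did not overlap, and C1qa rose by 3.88 ± 0.60 (adjusted p = 6.67e-04). Cfp, which encodes properdin, the stabiliser of the alternative pathway, rose by 3.12 (adjusted p = 5.68e-04), C1qc by 2.29 and Cd55, a complement inhibitor of cell surfaces, by 3.45.

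Scavenger and pattern recognition receptors rose in 3 of 21 tested and fell in 1, with a median of 0.90. Beside Marco and Stab2, the fungal lectin receptor Clec4n, or dectin-2, rose by 5.19 (adjusted p = 1.56e-04). Stab1, a scavenger receptor related to Stab2, went the other way: it was at 14.99 and 15.21 at E10.25, 13.22 and 14.17 at E10.5, 12.60 and 12.47 at E12.5, 13.02 at E14.5 and 11.26 and 12.02 at E18.5. Every fetal library lay below every E10 library, and Stab1 fell by 2.12 ± 0.46 (adjusted p = 0.0108). The difference was -2.91 within the larger set (adjusted p = 0.0157) and -1.09 within the smaller (adjusted p = 0.902). Mrc1, the mannose receptor, was at 13.11 to 13.50 at E10 and 12.04 to 12.82 in fetal liver, without overlap, but its difference of -1.02 ± 0.34 did not pass (adjusted p = 0.0914). Over all genes tested, 323 (3.17%) lay lower in every fetal library than in every E10 library. Lyve1, a hyaluronan receptor of embryonic macrophages, differed by -0.95 (adjusted p = 0.67), with 9.18 to 12.09 at E10, 10.10 to 12.19 at E12.5 and E14.5, and 5.37 and 8.49 at E18.5. Of 22 tested efferocytosis genes, which serve the uptake of dying cells, 5 rose and 1 fell, the last being Stab1 (median 0.69). Dab2, an endocytic adaptor, fell by 1.81 ± 0.36 (adjusted p = 0.00631).

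Interferon response genes rose in 7 of 27 tested and fell in 0, with a median of 2.14. Rsad2, the antiviral protein viperin, was at the floor in all 4 libraries of E10, at 8.36 and 7.90 at E12.5, 7.64 at E14.5 and 13.83 in both E18.5 libraries. The E18.5 pair stood far above the other fetal libraries. Its rise of 4.94 ± 1.21 is counted from the floor (adjusted p = 0.0238), and the call ended without E10.25 replicate 1 (4.94), either E10.5 library (4.94) or either E18.5 library (4.06). Rsad2 passed the filter on low levels only through the fetal libraries. Ifit3 rose by 4.41 (adjusted p = 0.00487) and Oas1a by 3.95 (adjusted p = 0.00203), both interferon-induced antiviral genes. Of MHC class I genes, 2 of 15 rose (median 1.62), namely H2-T23 (3.30) and Tapbp (2.37), the peptide-loading protein tapasin. Tapbp lost its call in 8 of the 9 fits with a library left out, all but that without E14.5, with values of 1.91 to 2.55. Of MHC class II genes, 1 of 9 rose, the lysosomal thiol reductase gene Ifi30 (2.17, adjusted p = 0.00166).

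Of 16 tested cytokine and chemokine genes, 4 rose and 2 fell, with a median of 1.01. Cxcl16, a membrane-bound chemokine and scavenger of oxidised lipid, was at 5.37 in 3 libraries of E10 and 5.43 in the other, and at 10.75 and 10.16 at E12.5, 10.59 at E14.5 and 12.27 and 10.87 at E18.5. The sides were far apart, and it rose by 5.54 ± 0.68 (adjusted p = 6.2e-05). Cxcl16 passed the filter on low levels only through the fetal libraries. Il1a rose by 4.44 and Ccl24 by 2.83. Ccl3, an inflammatory chemokine, was at 9.26 to 10.60 at E10 and 5.37 to 8.13 in fetal liver, and fell by 3.24 ± 0.81 (adjusted p = 0.0264). Ccl9 fell by 2.81 (adjusted p = 0.0355), and Ccr1, a receptor for both, fell by 2.74 (adjusted p = 0.0499). The call of Ccl3 ended without E10.5 replicate 1 (-3.32), E10.5 replicate 2 (-3.01) or E18.5 replicate 2 (-3.22), and that of Ccr1 in 7 of 9 such fits, with values of -2.94 to -2.07, all but those without E10.5 replicate 1 or E18.5 replicate 1.

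Of 29 tested general macrophage genes, 7 rose and 1 fell, with a median of 1.12. Csf1r, the receptor for the growth factor of macrophages, was at 14.70 and 14.53 at E10.25, 13.07 and 13.39 at E10.5, 14.44 and 14.46 at E12.5, 14.38 at E14.5 and 15.90 and 14.98 at E18.5. The sides overlapped, and the difference was 0.91 ± 0.47 (adjusted p = 0.309). Cx3cr1, the fractalkine receptor, differed by -0.14 (adjusted p = 0.904). Lysosomal genes rose in 6 of 33 tested and fell in 0, with a median of 0.88, among them the cathepsins Ctsh (2.90, adjusted p = 5.68e-04) and Ctsd (2.38), the phosphatase Acp5 (2.69) and the sphingolipid activator Psap (2.36). Within the larger set 0 of the lysosomal genes were called higher. The limma differences there were 2.41 for Ctsh, 1.90 for Ctsd, 2.41 for Acp5 and 1.80 for Psap (adjusted p = 0.0515, 0.193, 0.0546 and 0.147). Within the smaller set, with 1 fetal library, the differences of these genes were 3.38, 3.06, 2.99 and 3.51. In the comparison with brain described further on, 0 of 33 were called. Of 7 tested Fc receptor genes, Fcgr4 (2.73) and the IgG transporter gene Fcgrt (1.65) rose and the Fc receptor-like gene Fcrls fell by 3.20. Leaving out 1 library ended those 3 calls in 6 or 7 of 9 fits, with values of 2.14 to 2.94, 1.42 to 1.67 and -3.33 to -2.52. The fits that kept them were those without E10.5 replicate 2 or E14.5 for Fcgr4, those without E10.25 replicate 2, E12.5 replicate 2 or E14.5 for Fcgrt, and those without either E12.5 library for Fcrls.

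Cell cycle genes had 1 call. Over all genes tested, 4.65% were called and 19.3% had an unadjusted p under 0.05. Lists of this size with 0 or 1 call are not set apart from those shares. Of 29 tested genes of DNA replication, 0 were called in limma and 5 had an unadjusted p under 0.05 (median -0.32). Among 28 mitosis genes (median -0.11), 1 fell, the kinetochore motor gene Cenpe (-2.12, adjusted p = 0.0288), and its call ended without any 1 of the 4 libraries of E10 (-2.26 to -2.02). Mki67, the usual proliferation marker, was at 14.18 and 14.58 at E10.25, 14.14 and 13.51 at E10.5, 13.56 and 13.80 at E12.5, 13.74 at E14.5 and 13.42 and 13.79 at E18.5. The sides overlapped (-0.44 ± 0.37, adjusted p = 0.561). In limma, 0 of 13 progenitor genes and 0 of 18 oncofetal and imprinted growth genes were called (4 and 2 at an unadjusted p under 0.05). Slc2a1, the glucose transporter of red cells and other tissues, was the single called gene of the 22 of glycolysis and hypoxia, with a rise of 3.72 ± 0.51 (adjusted p = 2.06e-04).

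The gene with the largest fall was Ednrb, the endothelin receptor B. Its level was 12.45 and 13.73 at E10.25, 14.52 and 12.08 at E10.5, 9.63 and 9.42 at E12.5, 8.23 at E14.5 and 5.37 in both E18.5 libraries. The sides did not overlap, and Ednrb fell by 5.59 ± 0.83 (adjusted p = 4.5e-04). Zfp948, a zinc finger gene, fell by 4.31 (adjusted p = 9.79e-04), Gspt2, a translation termination factor, fell by 3.66 (adjusted p = 0.00643), and Gm10800, a predicted gene with near-identical copies whose value is uncertain, fell by 3.35. Ahnak, a large scaffold protein gene, fell by 3.69, Nupr1, a stress-response regulator, fell by 3.50, and Ikzf2, a lymphoid zinc finger factor, fell by 3.25. The Ahnak call ended without E10.5 replicate 1 (-3.50). That of Nupr1 ended without E10.25 replicate 1 (-3.30), either E10.5 library (-3.59 and -3.60) or E18.5 replicate 2 (-3.03), and that of Ikzf2 without E10.5 replicate 1 (-3.02), E12.5 replicate 2 (-3.08) or E18.5 replicate 2 (-3.08).

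Within the fetal side, E18.5 (n = 2) was set against E12.5 (n = 2) with 1 mean per age and the spread of all 9 libraries. In limma 0 of 10202 genes were called (0%), and 638 (6.25%) had an unadjusted p under 0.05. The filter asks for 4 libraries, so a gene high in the E18.5 pair alone, such as Vsig4, could not enter. Without the filter 0 of 13127 genes were called. The difference was 4.38 for Clec4f (adjusted p = 0.213), 5.70 for Rsad2 (adjusted p = 0.213), -4.16 for Ednrb (adjusted p = 0.23) and -4.92 for Lyve1 (adjusted p = 0.213). It was -0.05 for Marco, 0.24 for Hbb-bs and 0.64 for Spic (adjusted p = 1, 0.997 and 0.969). With a floor 1 higher 4 genes were called, and with the spread of all Mac libraries of the series 8.

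To ask whether a change belonged to liver, the difference between fetal ages and E10 in brain Mac was subtracted from that in liver Mac. Of 11989 genes tested over the 20 libraries, 118 were called (0.984%), 107 with a more positive change in liver (0.892%) and 11 with a more negative one (0.0918%). Within the larger set the count was 27 and within the smaller set 0 (698 at an unadjusted p under 0.05). Under median centring the split was 65 positive and 14 negative, under quantile scaling 100 and 22, and with 1 mean per age 143 and 33. The negative count was 33 without brain Mac E12.5 replicate 1, 21 and 17 without brain Mac E14.5 replicates 1 and 2, and 6 without brain Mac E10.25 replicate 3. It was 5 and 6 without liver Mac E10.5 replicates 1 and 2, and 7 without liver Mac E12.5 replicate 2. The changes of Cd5l and Marco exceeded those in brain by 7.73 ± 0.99 (adjusted p = 2.36e-05) and 7.64 ± 0.84 (adjusted p = 7.92e-06), those of Clec4f by 6.59 ± 1.21 (adjusted p = 0.00309) and of Spic by 5.81 ± 0.90 (adjusted p = 3.12e-04). Brain Mac itself had 52 genes called higher (0.434%) and 35 lower (0.292%), and neither Clec4f nor Marco exceeded 6.29 there. Of the Kupffer cell identity list, 9 of 20 tested genes were called, among them Fcna at 6.51 ± 0.77 (adjusted p = 1.09e-05). Fcna fell by 3.12 in brain (adjusted p = 0.00288) and rose in liver.

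The erythroid list held 15 called genes of 21, with Hbb-bs at 8.44, Hbb-bt at 7.95 and Hba-a2 at 7.01. Tmcc2 was at 8.04, Tfrc at 5.94 (adjusted p = 0.00273), Vcam1 at 5.36 (adjusted p = 0.0244), Blvrb at 4.43 and Cfp at 4.40. Several changes in liver were not shown to differ from brain. The difference of changes was 2.66 ± 0.86 for Adgre1 (adjusted p = 0.154), 2.68 ± 1.04 for C1qa (adjusted p = 0.251) and 1.65 ± 1.03 for Axl (adjusted p = 0.504). For Hmox1 it was 2.48 ± 0.85 (adjusted p = 0.178). Mrc1 fell by 2.39 in brain (adjusted p = 0.0127) against a difference of -1.02 in liver, and the difference of changes was 1.36 ± 0.70 (adjusted p = 0.403). On the negative side, Sall1, a microglial transcription factor, had a value of -5.11 ± 1.01 (adjusted p = 0.00641). It was at the floor in 8 of the 9 liver libraries and at 6.46 in E10.5 replicate 2, while brain Mac went from 5.37 to 7.72 at E10 to 9.52 to 13.04. Ikzf2 (-4.70), Senp5, a SUMO protease gene (-4.74), and BC005561 (-3.79) were also more negative in liver.

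**Figure D5:**
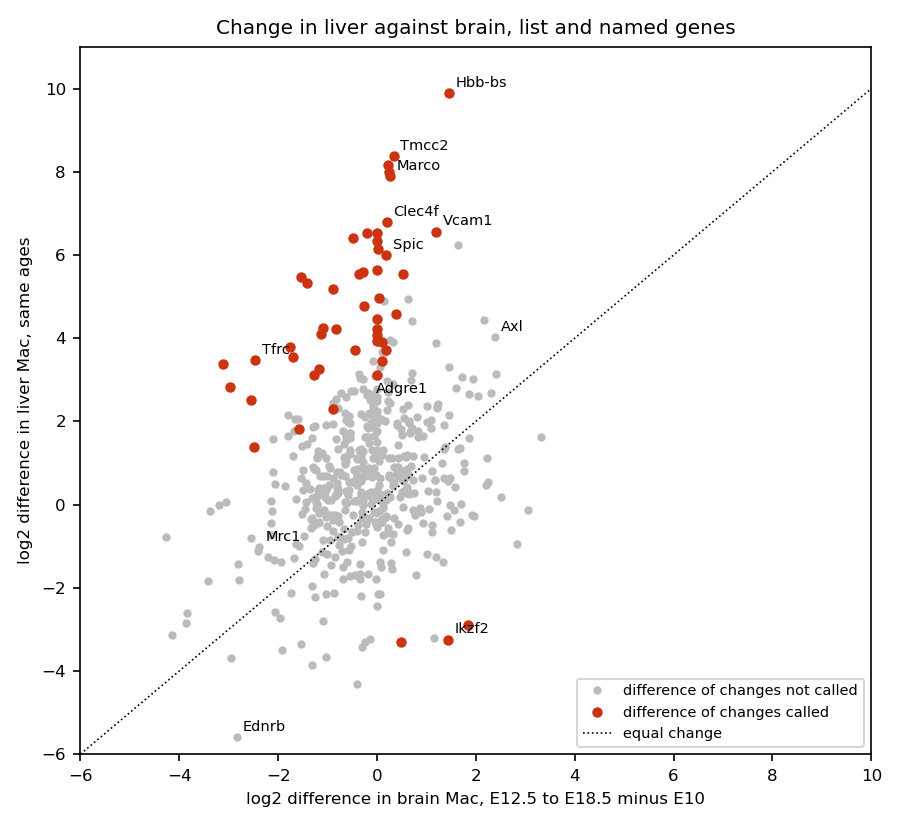
Difference between fetal ages and E10 in brain Mac (x axis, log2) and in liver Mac (y axis, log2) for the named and list genes tested in both. Red points passed the test of the difference of changes, and the dotted line marks equal change. The red points above the line include, with their difference of changes, Hbb-bs (8.44), Tmcc2 (8.04), Marco (7.64), Clec4f (6.59) and Spic (5.81), while Adgre1, Axl and Mrc1 are grey.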

How the data were processed

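RNA of sorted mouse cells was profiled with SMART-Seq2. The authors deposited 1 log2 value per Ensembl transcript and library (37521 transcripts, 93 libraries, range 0.836 to 19.0), already normalized and on a log scale, by a method not given in the sources used here. Base 2 is inferred from the values. The submitters' processing notes name Bowtie 1.1.1, DESeq2 and the mm10 build without roles.

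The highest 5th percentile of any library plus 0.5 gave a floor of 5.37. By identifier, 36714 transcripts matched GENCODE vM21 and 807 did not. For each of 14200 genes the parts of its transcripts above the floor were added up as linear values, together with the floor, and returned to log2. Genes at 6.37 or more in at least 4 libraries entered a limma fit (version 3.58.1, R 4.3.3) with an intensity trend. The fits used 2 means (fetal, E10), 1 mean per age, or 4 means of tissue and side. Library sets came from Ward clustering of offsets over 8123 low transcripts, with 2 sets preset. In fits within a set or of a single age, a gene needed the level in as many libraries as the smaller side has, and at least 2.

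On simulated data for the fetal against E10 comparison (9976 genes, 50 changed per size), 3 genes were recovered at 1.5, 32 at 3, 1 at -1.5 and 21 at -3, with 2 false calls. Same-numbered replicates did not deviate together (r 0.0041 to 0.031 over 6 pairs), so no replicate block was used. The naming rule took 20 key genes, the 12 largest rises and the 12 largest falls. Those rises and falls had no overlap and a mean of at least 7.37 on the higher side. It also took up to 4 called genes per list and the 6 largest values in each direction of the tissue contrast. Other list genes, among them Siglec1, Fcna, Spi1, Alas2, Dab2 and Kdr, are given outside this rule. Counts of named genes do not cover them. The members and lists were chosen with earlier results of these data known. Alternatives covered floor, filter, transcript summing, scaling, the replicate block, library sets, trend, age means, the source of the spread, single ages and leaving out each library. Some genes of the lists are not reported here by name.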

Additional observations from a re-analysis of the deposited data

Results flagged for a closer look

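In 10 of 76 groups of 4 or 5 libraries, over 40 genes, the highest or lowest library met Dixon's criterion for standing apart, which chance meets in about 1 in 20 groups of untied values. On the E10 side it was the highest library, for Clec4f (6.17 in E10.25 replicate 2), Spic (7.46 in E10.25 replicate 1), Cd163 (7.25 in E10.25 replicate 1), Vcam1 (9.05 in E10.5 replicate 2), Tmcc2 (5.72 in E10.5 replicate 2) and Slc4a1 (7.02 in E10.25 replicate 2). On the fetal side Hmox1 was lowest in E14.5 (14.54), Mrc1 highest in E12.5 replicate 1 (12.82), and Gspt2 (6.68) and Slc22a21 (8.96) highest in E12.5 replicate 2. For 5 of these, Clec4f, Cd163, Vcam1, Tmcc2 and Slc4a1, the other 3 libraries of E10 were tied at the floor of 5.37. Any value above it then meets the criterion, so the rate of 1 in 20 does not apply, and Tmcc2 and Clec4f lay less than 1 above it.

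The change in liver Mac differed from that in brain Mac, by the limma test of the difference itself, in both directions. Of 96 genes of the naming rule tested, 30 had a more positive and 6 a more negative change in liver. Over all genes tested the shares were 0.892% and 0.0918%. The rule itself took the 6 largest values in each direction of this contrast, and the 6 more negative genes are the ones it took. These counts were thus partly fixed in advance and only describe the genes named. The change was more positive in liver for Hbb-bs (8.44), Tmcc2 (8.04), Hbb-bt (7.95), Cd5l (7.73), Marco (7.64) and Hba-a2 (7.01). It was more negative in liver for Sall1 (-5.11), Senp5 (-4.74), Ikzf2 (-4.70), BC005561 (-3.79), Npnt (-3.76), an extracellular matrix ligand, and Ncan (-3.74), a proteoglycan of brain matrix. Npnt and Ncan lay at or within about 1 of the floor in all 9 liver libraries.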

How the results depend on the processing

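Of the 80 genes of the naming rule called between fetal liver and E10, 54 kept their call in each of the 9 fits that leave out 1 library. In all 24 alternatives that could test them 18 kept it, and 0 reversed. The count of 474 became 288 without the filter, 116 within the larger and 66 within the smaller set, 284 with the spread of all Mac libraries, 176 with E12.5 alone and 249 with E18.5 alone. Leaving out 1 library gave 278 to 577, with 577 without E14.5, 550 without E10.25 replicate 2, 278 without E18.5 replicate 2, 286 and 296 without E10.5 replicates 1 and 2, and 309 without E10.25 replicate 1. The fits within a set or of a single age used fewer libraries, and the cause of these moves was not tested.

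With the replicate number as a block 439 genes were called between fetal liver and E10, 0 between E18.5 and E12.5 and 88 between tissues. The numbers do not pair the libraries.

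Between E18.5 and E12.5 the count was 4 with the higher floor, 8 with the spread of all Mac libraries and 0 under the other settings run, and the smaller set could not be fitted. Between tissues the count of 118 became 27 within the larger and 0 within the smaller set, and 85 to 164 without 1 liver library. Leaving out 1 brain library gave 91 to 150, and a floor from the 9 liver libraries gave 435 calls between fetal liver and E10. Both were added after seeing the data. Depth is unknown, and at these group sizes most simulated differences of 1.5 were missed.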

Other observations

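Microglia genes were not uniformly low in liver macrophages. Of 14 tested genes of the microglia list, 3 rose and 1 fell between E10 and the fetal liver, with a median of 0.03. Tmem119, a membrane protein gene used as a microglial marker, was at 5.37 and 5.37 at E10.25, 5.67 and 7.32 at E10.5, 8.76 and 9.09 at E12.5, 8.58 at E14.5 and 10.65 and 7.92 at E18.5. It rose by 3.07 (limma adjusted p = 0.0348), against a difference of changes to brain of 1.36 (adjusted p = 0.704). The purinergic receptor gene P2ry13 rose by 2.65 (adjusted p = 0.0257) and the cathepsin gene Ctsf by 3.01 (adjusted p = 0.0399). Leaving out 1 library ended these calls in 6, 4 and 7 of 9 fits, with values of 2.65 to 3.12, 2.48 to 2.68 and 2.48 to 3.12.

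Ear2, an eosinophil-associated ribonuclease gene on the list of lung and skin macrophages, was at the floor in all 4 libraries of E10. It was at 10.19 and 8.32 at E12.5, 7.59 at E14.5 and 10.28 and 9.03 at E18.5, a rise of 3.71 from the floor (adjusted p = 0.00905) that exceeded the change in brain by 3.52 (adjusted p = 0.0136). In the liver comparison Ear2 passed the filter on low levels only through the fetal libraries.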
